A study of Homo sapiens with 8 samples.

Results

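The data described here are the peak lists of SETD3 knockout lines KO1 and KO2 of HCT-116, a human colorectal carcinoma cell line, each profiled by CUT&RUN with an antibody to BRG1 (SMARCA4) and with one to Flag-tagged actin. In CUT&RUN an antibody tethers a nuclease to chromatin and the released DNA fragments are sequenced, so that a peak is a stretch of genome with many released fragments. The study holds 8 libraries: Flag-actin in control cells, KO1 and KO2, BRG1 in control cells, KO1 and KO2, and an IgG library of control cells for each arm, the one of the Flag arm titled as an empty Flag sample. Control cells carry the genotype label SETD3 CT and both knockout lines the label SETD3 KO, and no label states how KO1 and KO2 were derived or whether they are clones. Each line and antibody has 1 library, so every difference between KO1 and KO2 below compares 2 libraries, has no replicate check and was not tested.

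The members are the peaks on chromosomes 1 to 22 and X of the 4 knockout lists, after removal of every peak that overlapped a peak of either IgG list by at least 1 bp. They number 50138 of the 263613 rows in all 8 lists. The BRG1 lists kept 6789 peaks in KO1 and 12782 in KO2, and the Flag-actin lists 12105 and 18462. A peak is called shared when it overlaps a kept peak of the other knockout line for the same antibody by at least 1 bp, and particular to its line otherwise.

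BRG1 is a catalytic ATPase of the SWI/SNF chromatin remodelling complexes, which slide or evict nucleosomes at promoters and enhancers. Beta-actin, encoded by ACTB, is a subunit of these complexes as well as the main component of the cytoskeleton. SETD3 is the methyltransferase that modifies a histidine of actin. Setting KO1 beside KO2 shows which sites of either antibody recur in the other knockout library.

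Removal of IgG sites took most of the peaks that the lines had in common. It removed 71.3% of the BRG1 peaks of KO1, 59.9% of those of KO2, 55.3% of the Flag-actin peaks of KO1 and 48.3% of those of KO2. Both IgG libraries came from control cells, so background found only in knockout cells was not removed. The kept peaks were narrow: their median width was 90 bp for BRG1 in KO1, 110 bp for BRG1 in KO2, 90 bp for Flag-actin in KO1 and 140 bp for Flag-actin in KO2. They covered 0.794, 1.68, 1.23 and 2.75 Mb in the same order. The maximum signal of every list came in whole multiples of 1 step, worth 11.5, 9.09, 9.69 and 8.40 signal units in that order, and the median kept peak reached 8, 10, 7 and 8 steps. Most peaks were thus low in steps, and the lists with smaller steps held more peaks; the part of the step size in the differences below was not tested.

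Promoter windows that a peak overlapped by at least 1 bp are shown for 5 genes of the BRG1 lists and 1 gene found in every knockout list. They are RefSeq windows of GRCh38.p14, the assembly that hg38 names, read from 250 bases before to 50 bases after an annotated start site in the direction of the gene. In the first 5, capitals mark CCAAT, the box bound by the factor NF-Y, or ATTGG, which is the same box on the other strand. These 5 were picked by hand from the genes named below and all hold the box, unlike many windows. A marked box need not lie within the peak. The KO1 peak at TBK1 (chr12:64452021-64452160) and the KO2 peak at FARP2 (chr2:241355531-241356060) do not reach the boxes marked in their windows. CTH, which makes cysteine from cystathionine (chr1:70411018-70411317, plus strand), and NME1, a nucleoside diphosphate kinase (chr17:51153309-51153608, plus strand), had BRG1 peaks over the window in KO1, KO2 and control cells. TBK1, a kinase of innate immune signalling (chr12:64451870-64452169, plus strand), had one in KO1 and control cells only. FARP2, a guanine nucleotide exchange factor (chr2:241356035-241356334, plus strand), and CREB3L2, a transcription factor of the secretory pathway (chr7:138002037-138002336, minus strand), had one in KO2 and control cells only. In IQGAP1, a scaffold protein that binds actin filaments (chr15:90387992-90388291, plus strand), capitals mark the 30 bases of the Flag-actin peak of KO1.
CTH: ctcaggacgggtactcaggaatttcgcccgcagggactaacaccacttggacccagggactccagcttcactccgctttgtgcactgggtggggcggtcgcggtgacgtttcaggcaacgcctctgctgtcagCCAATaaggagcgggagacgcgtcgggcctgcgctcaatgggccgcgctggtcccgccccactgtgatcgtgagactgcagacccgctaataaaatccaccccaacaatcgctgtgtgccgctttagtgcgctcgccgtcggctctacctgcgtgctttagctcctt
NME1: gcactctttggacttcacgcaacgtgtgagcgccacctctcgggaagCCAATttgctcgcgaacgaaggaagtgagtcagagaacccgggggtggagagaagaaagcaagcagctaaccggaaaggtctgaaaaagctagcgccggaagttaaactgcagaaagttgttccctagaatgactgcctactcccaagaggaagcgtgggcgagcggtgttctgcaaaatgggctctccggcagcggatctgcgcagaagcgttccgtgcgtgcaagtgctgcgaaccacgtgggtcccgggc
TBK1: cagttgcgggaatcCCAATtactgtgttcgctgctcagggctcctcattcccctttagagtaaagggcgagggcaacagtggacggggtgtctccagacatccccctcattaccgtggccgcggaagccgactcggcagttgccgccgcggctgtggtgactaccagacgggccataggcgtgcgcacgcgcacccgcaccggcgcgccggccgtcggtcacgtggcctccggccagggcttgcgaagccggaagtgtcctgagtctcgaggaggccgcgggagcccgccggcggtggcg
FARP2: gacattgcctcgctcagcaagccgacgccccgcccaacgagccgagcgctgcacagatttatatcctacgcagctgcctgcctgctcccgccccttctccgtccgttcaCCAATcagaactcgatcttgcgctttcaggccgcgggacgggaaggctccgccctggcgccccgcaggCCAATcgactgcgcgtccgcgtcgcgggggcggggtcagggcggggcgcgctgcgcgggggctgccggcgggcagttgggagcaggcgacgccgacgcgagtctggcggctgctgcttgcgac
CREB3L2: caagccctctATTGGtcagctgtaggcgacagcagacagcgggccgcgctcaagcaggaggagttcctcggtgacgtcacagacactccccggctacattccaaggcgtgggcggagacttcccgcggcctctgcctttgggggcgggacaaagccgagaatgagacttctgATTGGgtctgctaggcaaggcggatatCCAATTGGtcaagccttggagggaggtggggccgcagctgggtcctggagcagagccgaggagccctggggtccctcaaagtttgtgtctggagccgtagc
IQGAP1: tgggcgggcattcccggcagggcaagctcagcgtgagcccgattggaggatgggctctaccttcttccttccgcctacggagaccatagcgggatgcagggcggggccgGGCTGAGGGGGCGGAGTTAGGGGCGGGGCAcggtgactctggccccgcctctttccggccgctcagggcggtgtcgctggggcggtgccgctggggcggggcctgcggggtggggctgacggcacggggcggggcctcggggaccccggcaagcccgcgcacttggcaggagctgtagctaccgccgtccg

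The CCAAT box was found on either strand in 65.6% of the 180 promoter windows under BRG1 peaks of both lines. It was in 52.7% of the 338 windows with a KO1 peak only and in 50.2% of the 1450 windows with a KO2 peak only. Windows under BRG1 peaks of control cells held it in 44.3% of 4637, and all 22132 windows in 34.6%. The share was thus highest where both knockout lines had a peak. All these classes of BRG1 windows were richer in G and C than the 62.3% median of all windows. Their medians were 65.5% for both lines, 65.7% for KO1 only, 66.3% for KO2 only and 65.7% for control cells. The TATA sequence TATAAA, also searched on both strands, was in 2.22% of the windows of both lines against 9.46% of all windows. It was in 4.73% of those of KO1 only, 5.17% of those of KO2 only and 4.40% of those of control cells. The ETS sequence CCGGAAG was in 14.4% of the windows of both lines, 23.1% of those of KO1 only and 18.6% of those of KO2 only, against 12.8% of all windows. The AP-1 sequence TGANTCA was in 7.78% of the windows of both lines, 5.62% and 5.03% of those of one line, and 6.15% of all windows. These matches describe letters in the windows and do not show that a factor was bound. Flag-actin peaks of both lines lay over 6 windows only, too few to describe by shares.

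In these libraries BRG1 sites recurred between the lines more often than Flag-actin sites. Of the BRG1 peaks of KO1, 1804 of 6789 overlapped a KO2 peak, a share of 26.6% with an exact Clopper-Pearson 95% interval of 25.5 to 27.6%, which covers counting error only. Of the longer KO2 list, 1813 of 12782 peaks overlapped a KO1 peak, or 14.2% (13.6 to 14.8%). For Flag-actin the shares were 5.34% (646 of 12105, interval 4.94 to 5.75%) in KO1 and 3.49% (645 of 18462, interval 3.23 to 3.77%) in KO2. They depended on the mask and on width: with the IgG library of the Flag arm as the only mask they were 12.2% and 7.49%, and among peaks over 100 bp 2.11% and 0.623%. A particular peak overlapped a peak that the IgG removal had taken out of the other line in few cases. They were 2 BRG1 peaks of KO1, 4 of KO2, 11 Flag-actin peaks of KO1 and 3 of KO2. The same mask was used for both lines, and a kept peak touches no IgG peak. Only a removed peak that reached further could be counted, so these low counts do not measure what the mask did to sharing. Without the IgG removal, 74.1% of the BRG1 and 53.7% of the Flag-actin peaks of KO1 overlapped a KO2 peak.

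The strongest BRG1 peaks were the most often shared. Peaks were ranked by total signal within their own list and given as percentiles, where 100 is the highest. In the top 10%, 65.0% of the KO1 and 45.5% of the KO2 BRG1 peaks were shared, against 3.72% and 7.26% in the lowest 10%. The 100 highest BRG1 peaks included 87 shared peaks in KO1 and 70 in KO2, and the 1000 highest included 593 and 492. The Flag-actin lists fell off much faster. All 50 of the highest KO1 Flag-actin peaks and 49 of the 50 highest in KO2 were shared, but only 183 and 170 of the 1000 highest. In the top 10% as a whole, 16.7% of the KO1 and 11.1% of the KO2 Flag-actin peaks were shared. Many peaks lay close to the lower limit of their list, where sharing was rare: 34.3% of the BRG1 peaks of KO1 had a total signal within 10% of the lowest kept value, and 10.8% of those were shared.

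**Figure D1:**
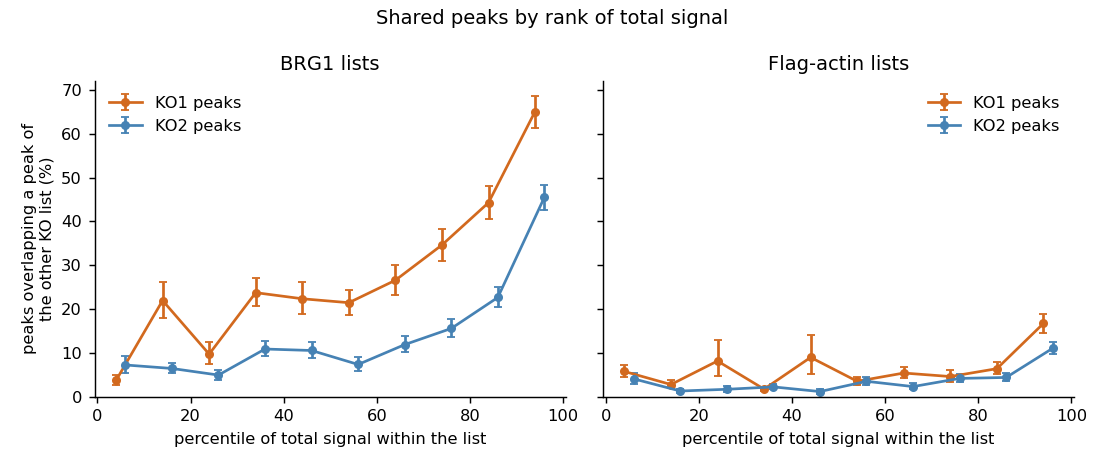
Share of kept peaks that overlapped a peak of the other knockout list (y axis, percent) by percentile of total signal within the list (x axis), for BRG1 (left) and Flag-actin (right), with points at the centre of each bin of 10 percentiles and exact 95% intervals as bars. The BRG1 share rises to 65.0% in KO1 and 45.5% in KO2 in the top 10%, and the Flag-actin share to 16.7% and 11.1%.

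Shared BRG1 peaks were wide and shared Flag-actin peaks were very narrow. The median width of shared against particular BRG1 peaks was 150 against 90 bp in KO1 and 170 against 110 bp in KO2. For Flag-actin it was 40 against 90 bp in KO1 and 50 against 140 bp in KO2. Shared BRG1 peaks fell into 2 width groups: 25.8% in KO1 were up to 50 bp wide and 65.9% were over 100 bp. In the BRG1 lists sharing was accordingly lowest at middle widths. Of the BRG1 peaks of KO1, 42.9% of those up to 50 bp wide were shared, 5.64% of those over 50 and up to 100 bp, and 82.6% of the 109 over 300 bp. The KO2 BRG1 list followed the same course with 23.4%, 3.01% and 44.8%. In the Flag-actin lists, 29.0% of the narrowest class in KO1 and 31.1% in KO2 were shared, against 2.19% and 3.36% at 50 to 100 bp. In KO2 it was lower still at greater widths, 1.34% at 100 to 200 bp and 1.01% at 200 to 300 bp.

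**Figure D2:**
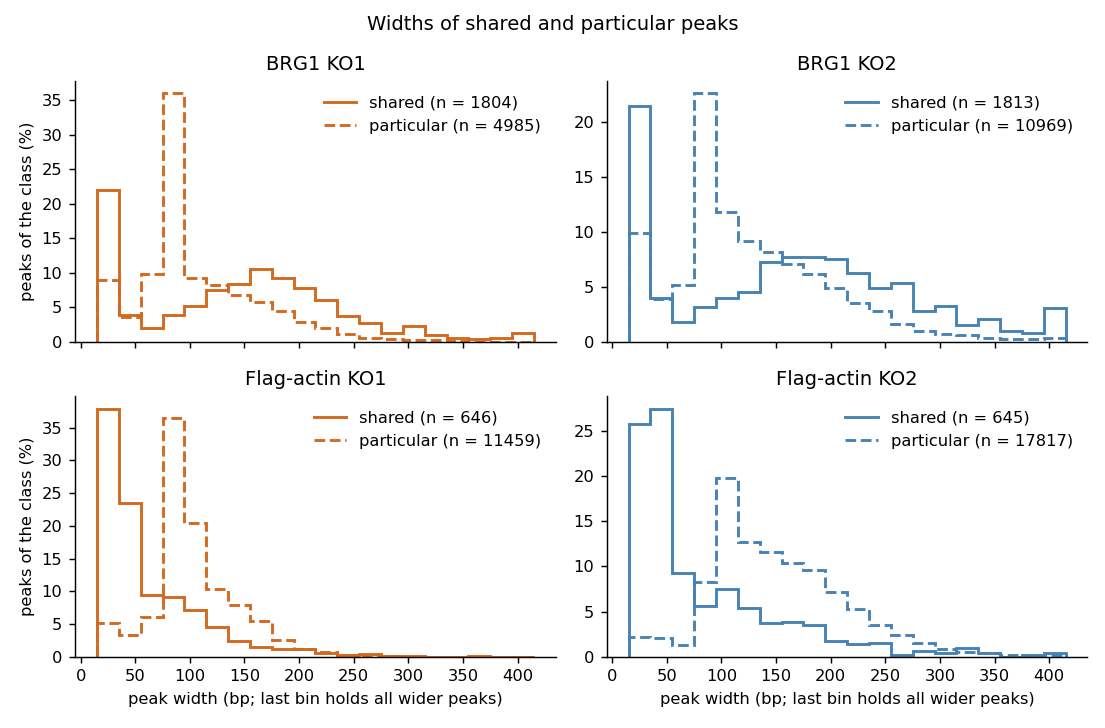
Width of kept peaks (x axis, bp, bins of 20 bp with all wider peaks in the last) as a percent of the shared (solid) and particular (dashed) peaks of each knockout list (y axis). Shared BRG1 peaks form a narrow and a wide group, and the median over all of them is 150 bp in KO1 and 170 bp in KO2. Shared Flag-actin peaks crowd at the narrow end with medians of 40 and 50 bp.

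The wide and the narrow shared BRG1 peaks also differed in what else lay there. Of the shared KO1 peaks over 100 bp, 91.3% were also in the BRG1 list of control cells, 16% lay within 1 kb of an end of a protein-coding gene and 1.93% overlapped a Flag-actin peak of either knockout line. Of the shared KO1 peaks up to 50 bp, 25.4% were in the control list, 4.09% lay at a gene end and 18.9% overlapped a Flag-actin peak of a knockout line. Overlap with Flag-actin was about as common among the narrow particular peaks, at 15.8% in KO1, and in KO2 at 19.4% against 18.3% of the narrow shared peaks. Over all widths, 71.9% of the shared KO1 peaks were in the control list against 24.1% of the particular ones, and in KO2 72.4% against 32.0%. For Flag-actin, 46.9% of the shared KO1 peaks and 47.3% of the shared KO2 peaks were in the Flag-actin list of control cells, against 3.20% and 5.23% of the particular peaks. In the BRG1 list of KO2, 19.0% of particular against 13.1% of shared peaks lay at gene ends, and 29.5% against 16.4% of those over 100 bp. In KO1 the shares were 11% of particular and 13% of shared peaks, and 19.1% against 16% over 100 bp.

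Line-particular peaks differed from shared ones in rank as well. The median percentile of shared peaks was 73.6 in the BRG1 list of KO1 and 78.0 in that of KO2, against 42.5 and 46.4 for the particular peaks. In the Flag-actin lists it was 71.4 and 74.5 against 50.5 and 45.9. Particular peaks nonetheless reached the top of each list, the widest being 450 bp over RASAL2, a Ras GTPase-activating protein, in the BRG1 list of KO1 (percentile 97.9) and 610 bp over ERCC1, a DNA repair endonuclease subunit, in that of KO2 (99.0). The widest particular Flag-actin peak of KO1 was 370 bp over SFRP1, a secreted Wnt antagonist (98.9). In KO2 there were 2 of 690 bp, at SETD6 with NDRG4 and at DBNDD1 (both 99.7). Of these widest particular peaks of either antibody, all but the one over SFRP1 were also in the control list of the same antibody. The widest shared BRG1 peak of KO1 was 550 bp over SLC38A8, an amino acid transporter gene, where the KO2 peak was 620 bp wide, with percentiles of 99.7 in both lists.

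Ranks at shared sites followed each other loosely. Over the 1701 BRG1 sites where 1 KO1 peak met 1 KO2 peak, the Spearman correlation of total signal was 0.27, and over 641 Flag-actin sites it was 0.38. These are descriptions across sites of the same 2 libraries, which share genome position and mappability and are not independent replicates. The KO2 peak was the wider one at 781 BRG1 sites, the KO1 peak at 463, and the widths were equal at 457. At Flag-actin sites also found in control cells the correlation was 0.55 (299 sites), and at those not in the control list 0.17 (342 sites). The median distance between the 2 percentiles of a site was 19.7 for BRG1 and 24.0 for Flag-actin. Both peaks were in the top 10% of their lists at 210 BRG1 and 105 Flag-actin sites. Ranked by maximum in place of total signal, the correlations were 0.69 and 0.75. The maximum varied with width as well. In the Flag-actin list of KO1 its median was 18 steps for shared peaks, with a median width of 40 bp. It was 7 steps for particular peaks, with a median width of 90 bp. The part of width in these correlations was not tested.

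**Figure D3:**
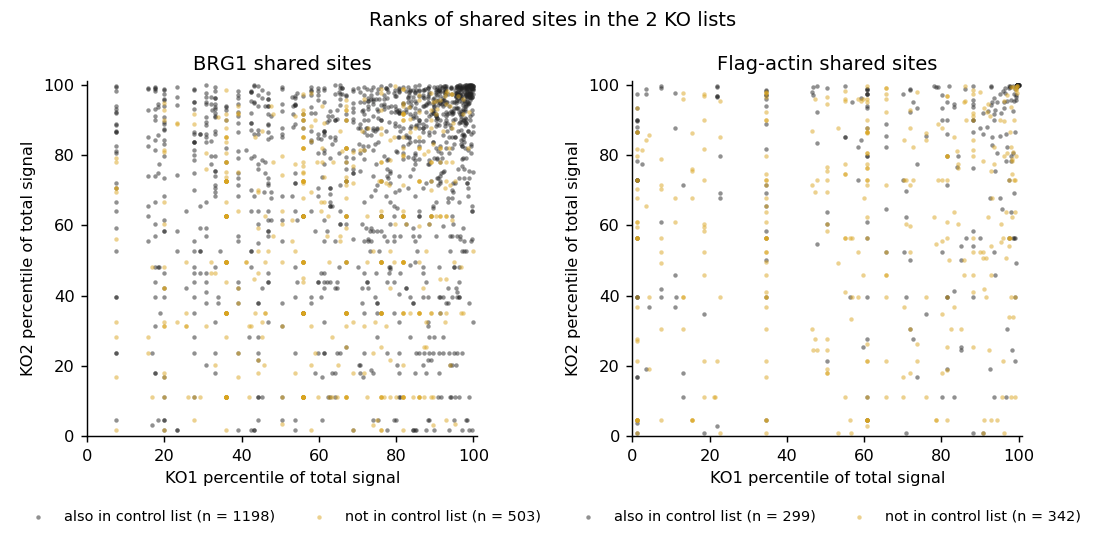
Percentile of total signal in KO1 (x axis) against KO2 (y axis) at sites where 1 peak of each list overlap, for BRG1 (left, 1701 sites) and Flag-actin (right, 641 sites), with dark points also in the control list and amber points not. BRG1 sites crowd in the upper right corner, and lines of points are tied values of low signal.

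At genes, BRG1 peaks of KO2 covered a larger set than those of KO1. A gene was counted where a kept peak lay within 1 kb of either annotated end, since the gene table gives no strand, and 19974 protein-coding genes were read. KO1 had 858 such genes (4.3% of all genes) and KO2 had 2463 (12.3%), against 6219 (31.1%) in control cells. Both lines had 370 genes (1.85%), of which 261 carried overlapping peaks, while 488 (2.44%) were found in KO1 only and 2093 (10.5%) in KO2 only. Control cells had a BRG1 peak at 86.2% of the genes of both lines, 60.9% of those of KO1 only and 68.5% of those of KO2 only. Cut to equal length by total signal, the lists gave 255 genes in both, 603 in KO1 only and 1272 in KO2 only. This cut keeps every KO1 peak but only the KO2 peaks of highest total signal, so it does not set list length aside.

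Among the genes with a BRG1 peak in both lines, DOP1B, COTL1 and MYC were in the 10 with the highest mean percentile. DOP1B, which acts in endosome traffic, had a 260 bp peak in KO1 (percentile 98.4) and a 530 bp peak in KO2 (99.1). COTL1, which encodes the actin-binding coactosin-like protein, had peaks of 190 and 220 bp (99.3 and 97.2) at chr16:84618951-84619140 and chr16:84618921-84619140. At MYC, the growth-promoting transcription factor, the peaks were 210 and 360 bp wide (96.2 and 99.8). RAB1A, a GTPase of transport from the endoplasmic reticulum, had peaks of 290 and 270 bp (99.1 and 95.5), and AP2A1, a subunit of the clathrin adaptor, of 290 and 430 bp (95.5 and 96.7). The promoters printed above for CTH and NME1 belong to this set. CTH had peaks of 310 bp (percentile 97.0) in KO1 and 450 bp (95.1) in KO2, and NME1 of 360 bp (93.5) and 330 bp (97.2). The remaining genes of the 10 highest were NCF1, a subunit of the phagocyte NADPH oxidase with near-identical pseudogene copies, RELL1 and WBP2. WBP2 was counted in both lines from different sites, since its KO1 and KO2 peaks did not overlap. All 10 also had a gene-end BRG1 peak in control cells.

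Among the BRG1 genes of KO1 only, TBK1 had the highest peak. It was 140 bp wide at percentile 98.9, at chr12:64452021-64452160 within the window printed above, where the control peak ranked at 6.74. LAMB3, a laminin chain of the epithelial basement membrane, had a 330 bp peak at 98.7. A peak between IRF3, the transcription factor that TBK1 activates, and BCL2L12 was 230 bp wide and ranked at 97.0. HTR1D, a serotonin receptor, and ARG2, the mitochondrial arginase, had peaks at 96.3 and 94.9 and no gene-end BRG1 peak in control cells. The other genes of the 10 highest were ARL14, C4orf33 with SCLT1, TIMM44, a subunit of the mitochondrial import motor, PAFAH2 and SRP9, a protein of the signal recognition particle, with percentiles of 94.7 to 95.7. Of the 10 loci, 8 had a gene-end BRG1 peak in control cells.

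The 10 highest BRG1 genes of KO2 only were taken from a larger set, 2093 genes against 488, so their percentiles are not comparable with those of KO1 only. The first was the SETD6 locus, described below. FARP2 had a 530 bp peak at percentile 99.9 at chr2:241355531-241356060, reaching into the window printed above. A 520 bp peak at 99.9 lay over E2F3, a cell cycle transcription factor, and within 1 kb of an end of LOC124901482. DNAJC3, a co-chaperone of the endoplasmic reticulum, had a 380 bp peak (99.8) and CREB3L2 a 420 bp peak (99.7). MAP3K3, a kinase of the MAP kinase cascades, had a 470 bp peak (99.5), and DUSP5, a phosphatase of nuclear ERK, a 400 bp peak (99.3). SPAG4 and STRADA, the pseudokinase partner of the kinase LKB1, completed the list together with CNOT1, whose peak was one of those over the adjoining SETD6 gene. All 10 loci had a gene-end BRG1 peak in control cells, with percentiles from 53.4 to 99.8.

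The 17 gene lists read for BRG1 showed more KO2 than KO1 genes in 16 cases. The whole gene set did so too, with 4.3% of all genes in KO1 and 12.3% in KO2. The 25 AP-1 and immediate early genes respond to growth signals within minutes. Of these, 3 (12%) had a gene-end peak in KO1 and 11 (44%) in KO2. DUSP1, FOSB and EGR1 were in both, and DUSP5, IER2, NR4A1 and JUNB led those of KO2 only. Of 26 p53 target genes, 6 (23.1%) were in KO1 and 10 (38.5%) in KO2, with RRM2B, XPC, BTG2 and PLK3 in both. TNFRSF10B and SESN2 were in KO1 only, and MDM2, the p53 ubiquitin ligase, was among those of KO2 only. The 22 SRF and MRTF factors and targets, the genes most directly tied to actin state, gave 4 (18.2%) in KO1 and 9 (40.9%) in KO2. MYH9, VCL and EGR1 were in both, ZYX in KO1 only and SRF and MRTFA in KO2 only. Of 66 actin-binding genes, 7 (10.6%) were in KO1 and 17 (25.8%) in KO2, and 5 in both, among them COTL1, CORO1C, MYH9 and IQGAP1. Control cells had a gene-end BRG1 peak at 20, 15, 15 and 31 genes of these lists in the order given, against 31.1% of all genes. The lists overlap, so that EGR1 and MYH9 are each counted repeatedly.

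The other lists are given beside the shares over all genes, 4.3% in KO1 and 12.3% in KO2. Cytosolic ribosomal protein genes counted 2 in KO1 (2.53%) and 13 in KO2 (16.5%) of 79, and translation factors 3 and 13 of 45. No gene of the 17 in the SETD and SMYD methyltransferase list had a KO1 peak, while SETD6, SETD2, SETDB2 and SMYD5 were among the 6 with a KO2 peak. SWI/SNF subunit genes themselves counted 2 in KO1 (BRD7 and SMARCD1) and 4 in KO2 (ACTL6A, BICRAL, DPF3 and SMARCD2) of 28, with none in both. Extracellular matrix genes were the single list with more KO1 genes, 2 (TIMP2 and LAMB3) against 1 (TIMP2) of 32. Integrin and focal adhesion genes counted 6 in KO1 and 7 in KO2 of 32, with CAV1, ITGB4 and VCL in both, and junction genes 3 and 6 of 30, with PERP in both. Wnt genes counted 1 and 5 of 23, with AXIN2, a feedback inhibitor of the pathway, in both and TCF7L2 and DKK1 among those of KO2 only. Cell cycle genes counted 2 and 5 of 40, with AURKB in both, and replication-dependent histone genes 1 and 8 of 59. Intestinal and keratin genes counted 1 (KRT80, also in KO2) and 4 of 23, and actin genes 0 and 3 of 11. Of 39 marker genes of unrelated tissues, none was in KO1 and 4 were in KO2. These counts of a few genes each are descriptions, and the lists differ in length and in promoter composition.

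With this window at gene ends, Flag-actin gene sets overlapped less than those of BRG1. KO1 had 810 genes with a gene-end peak (4.06% of all genes), KO2 had 1662 (8.32%) and control cells 2930 (14.7%). Both lines had 144 (0.721%), of which 51 carried overlapping peaks, and 666 (3.33%) were found in KO1 only and 1518 (7.6%) in KO2 only. Control cells had a Flag-actin peak at 41.0% of the genes of both lines, 22.2% of those of KO1 only and 24.7% of those of KO2 only.

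The top of both Flag-actin lists was a fixed set of tall, narrow sites. The highest kept peak was 200 times the median total signal in KO1 and 156 times in KO2, against 7.72 and 6.54 times in the BRG1 lists. The 10 highest peaks held 9.07% of all kept signal in KO1 and 5.22% in KO2, against 0.647% and 0.377% for BRG1. Of the 50 highest KO1 peaks, 39 were up to 50 bp wide, 48 overlapped one of the 50 highest of KO2, and all 50 were in the Flag-actin list of control cells. Their total signals in KO1 and KO2 had a Spearman correlation of 0.99 over the 50 sites. None lay within 1 kb of an IgG peak, but few kept peaks did after the removal of IgG sites. The shares were 4.18% of all shared and 3.04% of all particular Flag-actin peaks of KO1. Of the 50, 10 and 6 overlapped a BRG1 peak of KO1 and KO2 before IgG removal. Over all shared Flag-actin peaks of KO1 the shares were 8.82% and 19.3%. The highest of all was a 30 bp peak over PCDH17, a protocadherin, at chr13:57708731-57708760, which ranked first in both lists.

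Actin-like loci were part of this set. A set of 55 actin and POTE genes and actin pseudogenes was taken by gene name, and resemblance to ACTB in sequence was not checked for each. Over these loci lay 8 of the 50 highest Flag-actin peaks of KO1 and 7 of those of KO2, all shared and all in the control list. The loci included POTEE, POTEI, ACTBP11, ACTBP15, ACTBP9 and ACTG1P14. In the 100 highest there were 14 in each line, and none in the 100 highest of either BRG1 list. Over whole lists, 25 KO1 and 26 KO2 Flag-actin peaks lay at such loci, of which 19 and 18 were shared. ACTG1, the gamma-actin gene, had 3 kept Flag-actin peaks in each line, all shared, with percentiles up to 99.5 in KO1 and 99.7 in KO2.

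ACTB itself had some of the highest Flag-actin signals, at sites that the IgG removal took out. Before removal, KO1 had 5 Flag-actin peaks over ACTB and KO2 had 4, and together they held 2.26% and 2.57% of all signal in their lists. Their total signals ran from 4521810 to 13690900 in KO1 and from 6451190 to 16537300 in KO2, and 3 and 4 of the 10 highest peaks of the unfiltered lists were among them. The BRG1 lists had peaks at the same places with total signals of 25719 to 72888 in KO1, and both IgG lists had 5. The deposited lists cannot separate fragments of the endogenous ACTB gene from fragments of a Flag-tagged ACTB construct.

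The genes with the highest Flag-actin peaks in both lines began with 3 of these tall sites, at TBX4, IQGAP1 and CSH2, and went on with lower ones. TBX4, a limb and lung transcription factor, had a 30 bp peak of 2034 steps in KO1 and a 120 bp peak of 2304 steps in KO2. IQGAP1 had a 30 bp peak of 1272 steps in KO1, the capitals in the sequence above (chr15:90388101-90388130), and a 60 bp peak of 1417 steps in KO2. The 30 bases hold 19 G and 4 C. CSH2, a placental lactogen gene with near-identical paralogs, had 482 and 634 steps, and ACTG1 71 and 90. COL9A3, a collagen chain, had 30 and 52 steps at 30 bp in both lines. GP1BB, SBK2, ACTA1, the skeletal muscle actin, POTEH and ZSCAN20 followed, with POTEH counted from different sites in the 2 lines. Control cells had a gene-end Flag-actin peak at 9 of these 10 loci.

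Flag-actin genes of a single line were led by peaks of ordinary height. KO1 only began with CD55, which protects cells from complement (280 bp, 7 steps, percentile 99.3), a peak shared by CDH15 and SLC22A31 (170 bp, 12 steps, 99.2), URGCP (120 bp, 15 steps, 99.0) and GRIA2, a glutamate receptor subunit (100 bp, 10 steps, 98.6). The 10 highest also included ASGR1, RNF222, OR56B4, PSG3 and CCDC3. Of the 10 loci, 4 had a gene-end Flag-actin peak in control cells. KO2 only began with a peak between PURG and WRN, the helicase gene of Werner syndrome (160 bp, 20 steps, 99.4), LOC124901163 (380 bp, 10 steps, 99.4), ADRA2B, an adrenergic receptor (190 bp, 14 steps, 99.3), and a peak between FTSJ3 and PSMC5, a proteasome ATPase (230 bp, 12 steps, 99.3). SRL, NXPH3, C8orf90, ATP5PD, FRAT2 and GPR162 completed the 10. A gene-end Flag-actin peak of control cells lay at 8 of these 10 loci of KO2 only.

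The gene lists held few Flag-actin genes of both lines, as did all genes, with 4.06% in KO1, 8.32% in KO2 and 0.721% in both. Of the 17 lists, 14 had more KO2 than KO1 genes and 10 had no gene in both. The 11 actin genes had 2 in KO1 and 3 in KO2, with ACTG1 and ACTA1 in both. Actin-binding genes counted 3 (4.55%) and 6 (9.09%) of 66, with IQGAP1 and MYH9 in both, SRF and MRTF genes 3 and 6 of 22, and ribosomal protein genes 4 and 10 of 79 (RPL7 and RPL35 in both). The other lists with more KO1 genes were the SETD and SMYD list with 4 against 1 of 17, and p53 targets with 2 against 1 of 26. SETD6, in both lines, was counted from different sites. Extracellular matrix genes counted 5 in each line of 32, with LAMA5 and LTBP1 in both, and translation factors 3 and 4 of 45 with none in both. ELF3, an epithelial transcription factor, was the single gene of both lines among 23 intestinal and keratin genes, which counted 1 in KO1 and 4 in KO2. Cell cycle genes counted 1 and 7 of 40, SWI/SNF subunits 2 and 4 of 28, and AP-1 and immediate early genes 1 and 2 of 25. Wnt genes (3 of 23), integrins (2 of 32), junction genes (2 of 30) and histones (1 of 59) had genes in KO2 only, and markers of unrelated tissues counted 1 and 2 of 39.

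AURKB and SETD6 each carried a run of strong BRG1 peaks in 1 line. Over AURKB, the mitotic kinase of the chromosomal passenger complex (chr17:8204731-8210575), KO1 had 8 BRG1 peaks of 70 to 200 bp with percentiles from 70.4 to 99.97. KO2 had 1 peak there, 90 bp wide at percentile 52.6, which overlapped the first of them. No peak lay over AURKB in the BRG1 list of control cells, the 3 Flag-actin lists or either IgG list. Over SETD6, a lysine methyltransferase gene (chr16:58515479-58523842), KO2 had 9 BRG1 peaks and KO1 none, counted with 1 kb on either side of the gene. Of the 9, 8 were kept, with widths of 110 to 310 bp and percentiles from 89.1 to 99.9. Control cells had 2 BRG1 peaks over SETD6, of 340 and 200 bp at percentiles 87.1 and 2.86. The Flag-actin list had 1 peak in KO1 (170 bp, percentile 50.5) and 1 in KO2 (690 bp, 99.7), which did not overlap each other. Control cells had 3 Flag-actin peaks there, of 180 to 530 bp at percentiles from 67.5 to 97.4. The KO2 Flag-actin peak overlapped the control list and the KO1 peak did not. In both genes the peaks were separate intervals spread over several kb. Exon positions were not used here, so it was not checked whether these intervals, or those over SETD3 described next, lie on exons. Whether their fragments came from chromatin or from a construct was not tested.

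**Figure D4:**
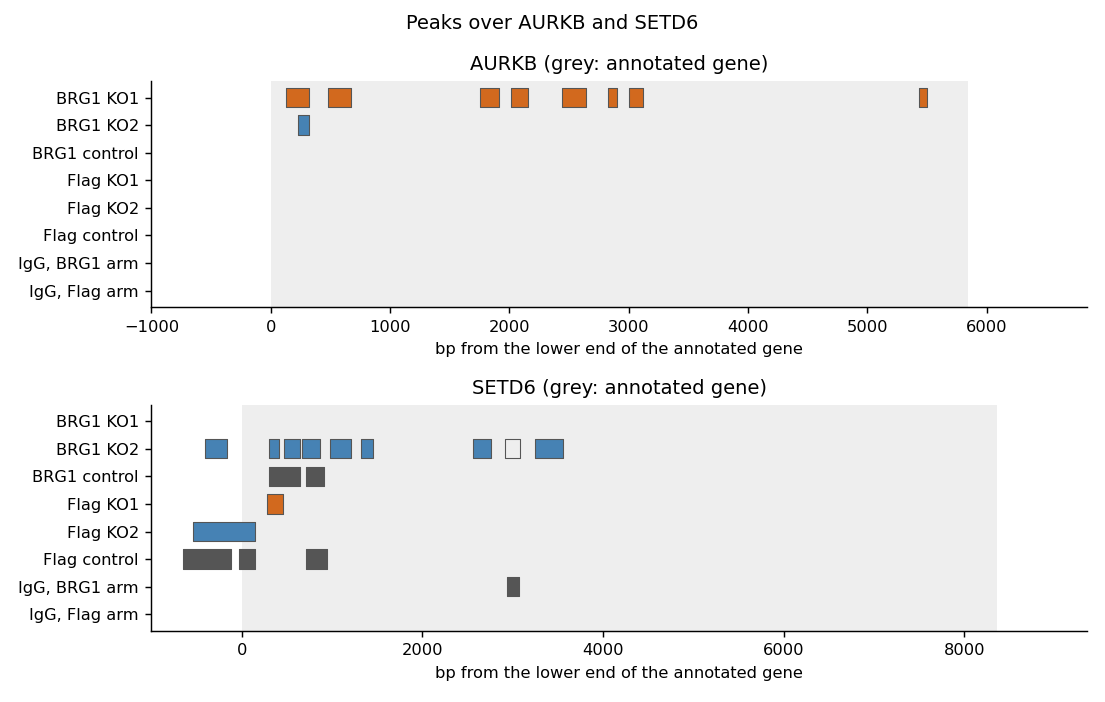
Peaks over AURKB (top) and SETD6 (bottom) in all 8 lists, as boxes by distance in bp from the lower end of the annotated gene (x axis), with the gene in grey and the peak removed as an IgG site left open. AURKB has 8 peaks in the BRG1 list of KO1 and 1 in KO2, and SETD6 has 9 in the BRG1 list of KO2 and none in KO1.

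SETD3 itself showed a run of short peaks in both lines. Before IgG removal each BRG1 list had 12 peaks over SETD3 (chr14:99397748-99486458), and 11 of the 12 in either line overlapped a peak of the other. Of those of KO1, 8 also overlapped a peak of the IgG library of the Flag arm and none a peak of the IgG library of the BRG1 arm, and 5 overlapped a BRG1 peak of control cells. The 4 kept BRG1 peaks of KO1 were all shared, with percentiles from 60.5 to 98.8, and KO2 kept 5. The Flag-actin list of KO1 had 3 peaks over SETD3, all removed, while that of KO2 had 11, of which 3 were kept. Peak lists do not show whether SETD3 is disrupted, so they do not check the knockout. SMARCA4, the gene of BRG1, had 1 BRG1 peak in each line (percentiles 59.1 and 11.2) at different places.

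Apart from AURKB, the genes with most line-particular peaks were 94.2 kb or longer. In the BRG1 lists NSMCE2, a SUMO ligase of the SMC5/6 complex, had 12 kept peaks in KO1 and 29 in KO2, and PCDH7, a protocadherin, had 10 and 25. RAD51B, a recombination gene, went the other way with 12 in KO1 and 8 in KO2, and did so for Flag-actin with 12 and 3. In the Flag-actin lists GSE1 had 15 peaks in KO1 and 42 in KO2, none of them shared. RBFOX3, a neuronal splicing factor, had 7 and 38, TRAPPC9 8 and 24, and SORCS2 3 and 21. CSMD1, a very long gene, had 14 in KO1 and 4 in KO2. Control cells had 104 Flag-actin peaks over GSE1 and 98 over RBFOX3, but 7 over CSMD1 and 7 over RAD51B.

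On the scale of 1 Mb windows the 2 lines placed their peaks alike. Over 2862 windows with a peak in any list, the Spearman correlation of peak numbers in KO1 and KO2 was 0.57 for BRG1 and 0.59 for Flag-actin, although few single sites were shared. The windows share gene content, base composition and copy number, and the values are a description. Peak numbers in KO2 followed those of control cells more closely, at 0.75 and 0.76, than those in KO1 did, at 0.59 and 0.63, but the KO2 lists are longer and this was not compared at equal length. The largest differences in share of the list were all in favour of KO2. For Flag-actin they were chr17:79000001-80000000, the window of RBFOX3, with 14 peaks in KO1 and 67 in KO2, and chr8:144000001-145000000 with 23 and 67. For BRG1 they were the same window of chromosome 8 with 4 and 27, and chr19:18000001-19000000 with 0 and 19. In favour of KO1 the largest was chr1:229000001-230000000 with 8 and 1 for BRG1, and chr14:68000001-69000000, over RAD51B, with 16 and 7 for Flag-actin.

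**Figure D5:**
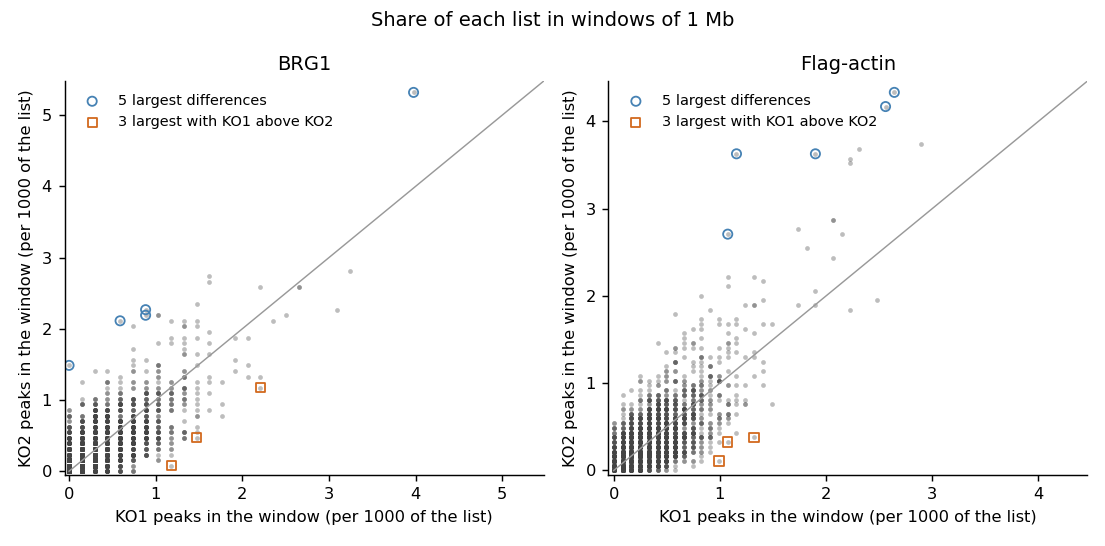
Kept peaks in each 1 Mb window per 1000 peaks of the list, KO1 (x axis) against KO2 (y axis), for BRG1 (left) and Flag-actin (right), with the line of equal shares in grey. Circles mark the 5 largest differences, all above the line, and squares the 3 largest in favour of KO1.

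Whole chromosomes differed by small amounts, in either direction. Chromosome 19, which is dense in genes, held 2.74% of the KO1 and 3.86% of the KO2 BRG1 peaks, the widest gap for that antibody. Chromosome 17 held 5.74% and 7.39% of the Flag-actin peaks. Chromosome 2 held more of the KO1 lists for both antibodies, 8.35 against 7.55% for BRG1 and 8.09 against 7.32% for Flag-actin. The share of BRG1 peaks of KO1 that had a KO2 counterpart ran from 21.8% on chromosomes 12 and 22 to 35.1% on chromosome 8.

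Peaks particular to a line seldom coincided between the antibodies. Of 4985 BRG1 peaks particular to KO1, 68 (1.36%) overlapped a Flag-actin peak particular to KO1 and 78 (1.56%) one particular to KO2. Of 10969 BRG1 peaks particular to KO2, 151 (1.38%) overlapped a Flag-actin peak particular to KO1 and 267 (2.43%) one particular to KO2. The KO2 Flag-actin list is the longer and covers more of the genome, so a higher count there does not show that a line's own sites agree across antibodies. By genes, 17 were found in KO1 only for both antibodies, or 3.48% of the BRG1 genes of that class, where 3.33% of all genes were in the Flag-actin class, and 2.55% of the Flag-actin genes, where 2.44% of all genes were in the BRG1 class. These shares lie near those over all genes. In KO2 only for both antibodies there were 195, or 9.32% of the BRG1 genes against 7.6% of all genes, and 12.8% of the Flag-actin genes against 10.5%. The classes with peaks in both lines for both antibodies met at 5 genes, DENND3, IQGAP1, IZUMO4, MCCC1 and MYH9, the heavy chain of non-muscle myosin. They were 1.35% of the BRG1 genes, where 0.721% of all genes were in the Flag-actin class. Among the Flag-actin genes they were 3.47%, where 1.85% of all genes were in the BRG1 class. So few genes do not define a common set.

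At 22 sites a BRG1 peak of KO1 overlapped a peak of all 3 other knockout lists. Of these, 14 were up to 50 bp wide, 11 were in the BRG1 list and 11 in the Flag-actin list of control cells. The sites lay over or next to IQGAP1, PRMT8, UNC13A, PTPRA, MCCC1, HIVEP2, MKLN1, MBNL3 and 5 further genes, and 9 lay over no protein-coding gene and its flanks of 1 kb. Their ranks differed between antibodies: the IQGAP1 site was at percentile 18.7 and 48.2 in the BRG1 lists of KO1 and KO2, and at 99.8 and 99.9 in the Flag-actin lists. At MCCC1, a carboxylase subunit, the order was the other way, with BRG1 at 73.4 and 96.9 and Flag-actin at 13.1 and 18.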

How the data were processed

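CUT&RUN libraries were made from genomic DNA with an EpiCypher kit, per the labels' protocols. Per the submitters' processing notes, the build was hg38 and the peak callers named are SEACR and MACS2, beside BWA, bedtools 2.30.0, deepTools, SAMtools, Trim Galore 0.4.5 and FastQC 0.12.0; their settings and any scaling are not given in the sources used here. The deposited peak lists give position, total signal and maximum signal per peak, 1 library per list, with the authors' thresholds of 0.01 (antibodies) and 0.005 (IgG) taken from the list names. The normalization of the signal is not stated and read depth is unknown, so signals were ranked within a list only. With 1 library per line and antibody, no test was run.

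Overlaps, ranks and gene windows were computed with Python 3.11.15, pandas 2.3.3 and scipy 1.17.1. Interval functions were tested on 60000 simulated intervals against bedtools 2.31.1, with 0 disagreements. A maximum was counted as a whole number of steps within a tolerance of 0.05 step. Shares carry exact Clopper-Pearson 95% intervals. Genes come from RefSeq GRCh38.p14 (19974 protein-coding genes). The plan was to use a promoter window as the main definition if the gene table gave strand, which it does not. Start sites were at hand for only 15812 of these genes, so a start-site window was run as an unplanned alternative. The genes named are the 10 loci with the highest peaks per class and antibody, the 5 genes with most particular peaks per list, up to 4 members per gene list and class, the widest peaks, the windows of largest difference and 6 fixed genes; PCDH17, the 22 sites in all 4 lists and the actin-like loci were singled out after their values were seen. A gene that the rule selects is not reported here. The 17 gene lists are SWI/SNF subunits, actins, actin-binding proteins, SRF and MRTF genes, AP-1 and immediate early genes, Wnt genes, ribosomal proteins, translation factors, integrins and focal adhesion, junctions, extracellular matrix, cell cycle, histones, p53 targets, intestinal and keratin genes, SETD and SMYD methyltransferases and markers of unrelated tissues. Members and lists were chosen with earlier results of these data known.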

Additional observations from a re-analysis of the deposited data

How the results depend on the processing

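Under every alternative run, BRG1 peaks were shared more often than Flag-actin peaks of the same line, and KO2 had more genes of its own than KO1. Removal within 1 kb of an IgG peak and a counterpart sought before removal changed no share beyond its interval. The second of these could change little, because the same mask was used for both lines. The values that moved are given as KO1 then KO2 shares. With an overlap of at least 50% of both peaks, BRG1 gave 21.1 and 11.2% and Flag-actin 4.01 and 2.63%. Within 500 bp they were 31.0 and 17.7%, and 6.94 and 4.58%. With lists of equal length they were 20.4 and 20.3%, and 4.38 and 4.37%, near-equal by construction. Without removal of IgG sites they were 74.1 and 55.0%, and 53.7 and 40.6%. When each arm used its own IgG library alone, the Flag-actin shares were 12.2 and 7.49%. Among peaks over 100 bp, BRG1 gave 37.4 and 16.6% and Flag-actin 2.11 and 0.623%. Among peaks above the median of each list, BRG1 gave 28.5 and 15.9%.

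Gene counts depended on the window. With 3 kb, BRG1 had 620 genes in both lines, and Flag-actin 484 in both, 1319 in KO1 only and 2728 in KO2 only. With the whole gene, the counts in both, KO1 only and KO2 only were, in the BRG1 lists, 1904, 1125 and 3553, and in the Flag-actin lists 2603, 1964 and 3807. With that window Flag-actin thus had more genes in both lines than BRG1, the reverse of the order at gene ends. Lists of equal length gave 1272 BRG1 genes in KO2 only. Without removal of IgG sites, 896 BRG1 and 663 Flag-actin genes were in both. A start-site window, added after the data were seen, gave 64, 391 and 933 Flag-actin genes over the 15812 genes with a start site. Rank correlations for BRG1 were 0.69 by maximum signal and 0.91 without removal of IgG sites, and for Flag-actin 0.75 and 0.94. For peaks over 100 bp, also added later, 91.3% of shared, 49.5% of KO1-particular and 50.4% of KO2-particular BRG1 peaks were in the control list, and 3.56% of KO1-particular Flag-actin peaks. Where no construction of the alternative shows it, the cause was not tested. No paired analysis was possible because each line and antibody has 1 library and no test was run, and for the same reason no library could be left out.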
